A study of Mus musculus with 6 samples.

Results

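The 39 genes described here are expressed by, or define, the blood vessels of the retina: 22 genes used by endothelial cells in general (pan-endothelial), 3 of the tip cell and of apelin signalling, 2 of fenestrae and caveolae, 4 of tight junctions, 5 transporters of the blood-retina barrier and 3 of the capillary surface. They were listed by name, and all 39 reached the total count of at least 10 over the 6 libraries that was required for testing, as did 20021 of the 32285 genes in the table. Retinas were taken at PN18 from wild-type C57BL/6J mice that had all gone through oxygen-induced retinopathy (OIR), in which pups and their mothers spend 5 days in 75% O2 from PN8 and return to room air at PN13. Thereafter the pups of the 3 OIR-CIH libraries lived under chronic intermittent hypoxia (CIH), with 266 cycles of 135 s spread over 10 h a day and O2 falling from 20.95% to 5% in each, and those of the 3 OIR-Norm libraries received the same gas flow at a constant O2 level. Both groups thus carried the retinopathy, and retinas without it were not analysed here. The labels speak of 3 eyes per group, but each library held both Xist, the RNA of the inactive X chromosome of females (298.5 to 1653 CPM, that is, counts scaled to one library size), and RNA of 4 Y-linked genes (57.3 to 184 CPM summed), so that the number of animals behind each library is not known and p-values measure the spread between these libraries alone.

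Endothelial cells line all retinal vessels, and a small set of adhesion molecules, receptors and transcription factors marks them in every vascular bed. In OIR, hyperoxia removes the central capillaries, and the retina is revascularised by sprouts led by tip cells, which express Esm1 and Apln, while Aplnr is the receptor of the apelin peptides. Vessels of the mature retina are sealed by tight junctions of claudin 5 and occludin, carry out selective transport through Mfsd2a and solute carriers, and lack the fenestrae whose diaphragms are built by Plvap. Loss of junctions and gain of Plvap are known features of leaky neovessels. In whole retina, endothelial RNA is a small share of the total, and fewer endothelial cells and less RNA per endothelial cell cannot be told apart.

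Many endothelial genes are known to be driven by ETS transcription factors such as Erg and Fli1, by Sox18 and Sox7 and, under hypoxia, by HIF, so the 250 bases before each RefSeq start site (build GRCm38.p6) were searched on both strands for AGGAAG (ETS), AACAAT (SOX) and ACGTG (HIF). Of the 39 genes, 25 were in the promoter table. AGGAAG stood before at least 1 start of 17 of these 25 (68%) against 32.3% of the 27025 genes in the table and 31.5% of its 17492 protein-coding genes. Counted per start site, the shares were 57.1% of 35 and 29.5% of 32851. ACGTG was found for 4 of 25 (16%) against 18.5% of all genes, and AACAAT for 4 of 25 (16%) against 10.9%. These matches are letters in a window and not sites of binding. The windows of 4 genes are shown for the range of what the search found: Emcn with 2 matches to AGGAAG and 1 to AACAAT (chr3:137340828-137341077, plus strand, where its last 11 bases are exon in GENCODE M21), Adgrl4 with 1 match to AGGAAG and 1 to ACGTG (chr3:151437632-151437881, plus strand), Esm1 with no match to any of the 3 (chr13:113209409-113209658, plus strand), and Apln with 1 match to AGGAAG (chrX:48034854-48035103, minus strand). Capitals mark AGGAAG and ACGTG on either strand.
Emcn: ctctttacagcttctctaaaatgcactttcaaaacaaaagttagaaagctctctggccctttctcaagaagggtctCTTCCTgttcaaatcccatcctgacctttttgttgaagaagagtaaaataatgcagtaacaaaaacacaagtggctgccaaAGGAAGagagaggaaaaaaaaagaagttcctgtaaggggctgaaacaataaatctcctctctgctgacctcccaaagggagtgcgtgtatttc
Adgrl4: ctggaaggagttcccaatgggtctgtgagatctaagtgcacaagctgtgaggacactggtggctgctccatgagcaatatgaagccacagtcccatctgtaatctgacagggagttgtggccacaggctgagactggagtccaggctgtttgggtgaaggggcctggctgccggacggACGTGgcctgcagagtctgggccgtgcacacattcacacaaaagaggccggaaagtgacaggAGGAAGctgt
Esm1: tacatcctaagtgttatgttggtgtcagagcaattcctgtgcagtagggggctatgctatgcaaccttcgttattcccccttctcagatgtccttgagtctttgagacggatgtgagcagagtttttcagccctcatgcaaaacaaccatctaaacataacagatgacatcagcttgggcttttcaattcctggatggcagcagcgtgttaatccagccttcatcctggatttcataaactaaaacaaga
Apln: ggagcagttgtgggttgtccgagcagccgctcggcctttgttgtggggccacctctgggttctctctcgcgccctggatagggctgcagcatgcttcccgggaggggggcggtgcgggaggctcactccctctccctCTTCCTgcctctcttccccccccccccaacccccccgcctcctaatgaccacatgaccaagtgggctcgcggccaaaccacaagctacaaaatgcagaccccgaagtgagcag

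Totals were between 26289905 and 38010151 counts per library. Levels are in CPM after scaling by the trimmed mean of M-values. The defining markers were present in every library, with Pecam1 between 8.32 and 24.4 CPM, but most of the 39 genes were low: 26 had a mean below 10 CPM and Sox7, Ly6c1 and Ly6a had at most 55 reads in any library. OIR-Norm 2 and OIR-Norm 3 stood apart from the other libraries in these genes, as described below. OIR-Norm 2 also held more RNA of lens genes, with 352 CPM summed over the 6 lens genes tested against 12.9 to 64.4 CPM in the 3 OIR-CIH libraries and 19.1 to 22.9 CPM in the other OIR-Norm libraries. Whether that RNA or the mix of animals had a part in the vascular levels was not tested.

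To ask whether CIH altered the vascular genes of the ischaemic retina, the groups were compared with edgeR's quasi-likelihood test, and a gene was called when its Benjamini-Hochberg adjusted p was under 0.05 and its log2 fold change (OIR-CIH against OIR-Norm) beyond 0.5 in either direction. None of the 39 genes was called, 0 of 39 against a background of 0.315% of all genes tested (0.215% lower and 0.0999% higher in OIR-CIH). The lowest adjusted p among them was 0.299, of Aplnr. At an unadjusted p under 0.05 there were 4, namely Aplnr, Vwf and Adgrf5 with lower and Apln with higher levels in OIR-CIH, where 13.2% of all genes tested had such a p (7.01% lower and 6.2% higher in OIR-CIH). DESeq2 and limma-trend on log2(CPM + 0.5) also called 0 of the 39, with 0 and 2 of them at an unadjusted p under 0.05, where 11.1% and 13.1% of all genes tested had such a p. The estimates leaned to lower levels in OIR-CIH: 27 of 39 log2 fold changes were below 0 (50.5% of all genes) and their median was -0.21, against -0.0028 over all genes tested. In none of the 39 did the 3 OIR-CIH values lie wholly above or below the 3 OIR-Norm values, whereas 18.4% of all genes tested had groups that did not overlap (9.26% lower and 9.12% higher in OIR-CIH).

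**Figure D1:**
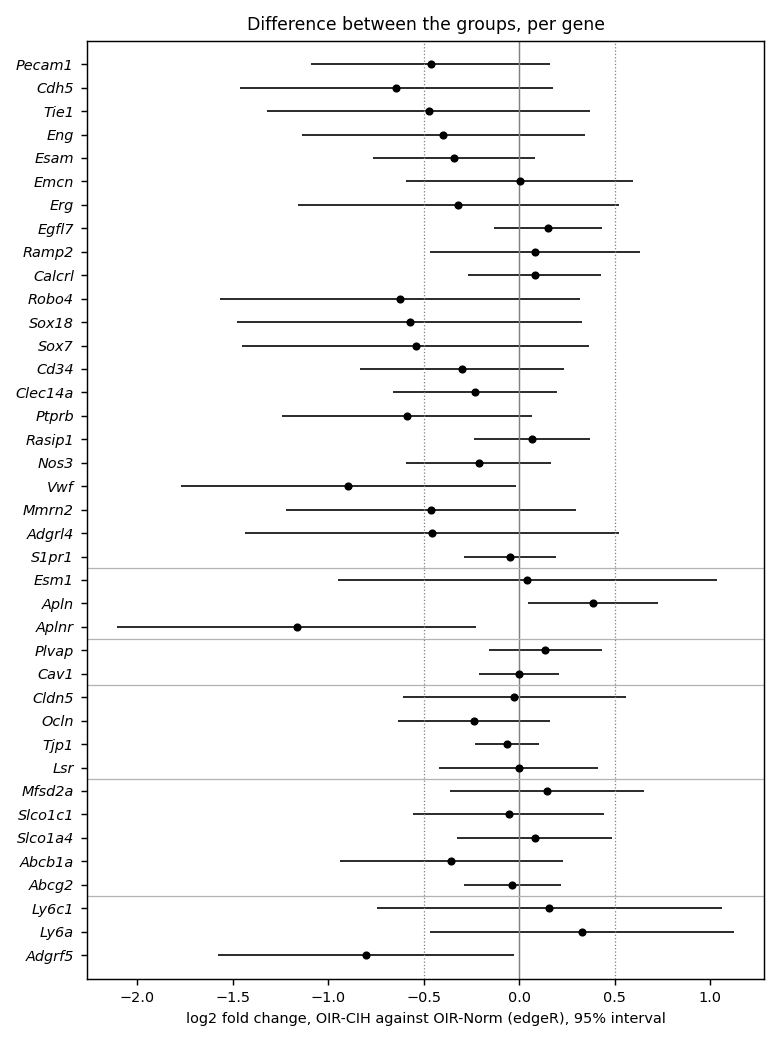
Log2 fold change of each gene (points, OIR-CIH against OIR-Norm, 3 libraries each) with its 95% interval from edgeR (lines), grouped by class from the pan-endothelial genes at the top to the capillary surface at the bottom; dotted lines mark the minimum of 0.5 in either direction. The interval includes 0 for 35 of 39 genes, and Aplnr at -1.17 and Apln at 0.38 are the extremes.

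The general endothelial genes were the class with the lowest median, -0.37, with 17 of 22 below 0. Pecam1 (ENSMUSG00000020717, chr11:106654217-106750628), the junctional adhesion molecule CD31, measured 9.38, 10.6 and 12.5 CPM in OIR-CIH 1 to 3 and 12.3, 24.4 and 8.32 CPM in OIR-Norm 1 to 3. The OIR-CIH values thus fell inside the range of OIR-Norm, which ran from the lowest to the highest library of the 6. The log2 fold change of Pecam1 was -0.46 (standard error 0.29, 95% interval -1.09 to 0.16, edgeR adjusted p = 0.52). Cdh5 (chr8:104101625-104144511), the VE-cadherin of adherens junctions, measured 5.65, 6.10 and 10.6 CPM in OIR-CIH and 10.4, 19.96 and 4.96 CPM in OIR-Norm, again with both extremes in OIR-Norm. The estimate for Cdh5 was -0.64 on the log2 scale (95% interval -1.46 to 0.17, edgeR adjusted p = 0.497).

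Vwf (chr6:125546774-125686679) encodes von Willebrand factor, which endothelial cells store and secrete for clotting, and it had the lowest fold change of the class. It measured 4.79, 5.93 and 9.98 CPM in OIR-CIH and 10.9, 22.9 and 5.18 CPM in OIR-Norm, so that OIR-Norm 3 lay below 2 of the 3 OIR-CIH libraries. The log2 fold change of Vwf was -0.89 (standard error 0.41, 95% interval -1.77 to -0.02, edgeR adjusted p = 0.37), and it was -0.20 without OIR-Norm 2 and -1.28 without OIR-Norm 3. At the other end, Egfl7 (chr2:26580014-26593120), a secreted factor of the vessel wall and the host of miR-126, measured 13.3, 16.5 and 16.7 CPM in OIR-CIH and 11.98, 15.5 and 14.5 CPM in OIR-Norm, a log2 fold change of 0.15 (95% interval -0.13 to 0.43, edgeR adjusted p = 0.666). Egfl7 was also the gene of the 39 in which OIR-Norm 2 and OIR-Norm 3 differed least. Its exons overlap those of Gm20532 on the same strand and of Agpat2 on the other, so reads can be shared.

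Among receptors of the class, the estimates were -0.47 for Tie1, the partner of the angiopoietin receptor, -0.59 for Ptprb, the phosphatase VE-PTP that acts on it, -0.40 for Eng, a TGF-beta co-receptor, and -0.63 for Robo4, which stabilises vessels, with adjusted p from 0.434 to 0.664 (edgeR). Adrenomedullin acts through Calcrl and Ramp2, whose log2 fold changes were both 0.08, and the sphingosine-1-phosphate receptor S1pr1 was at -0.05 with a narrow interval of -0.29 to 0.19. Ramp2 shares 1103 exonic bases with Vps25 on the same strand, which makes its value uncertain. The transcription factors stood at -0.57 (Sox18), -0.54 (Sox7) and -0.32 (Erg), each with an interval from below -1 to above 0.3. The remaining genes of the class ran from -0.46 for Mmrn2, an extracellular matrix protein of vessels, and Adgrl4, an adhesion receptor of angiogenic endothelium, to 0.07 for Rasip1, a regulator of lumen formation. Between them lay Esam (-0.34), Cd34 (-0.30), Clec14a (-0.23), Nos3, the endothelial nitric oxide synthase (-0.21), and the sialomucin Emcn (0.0017). Exons of Rasip1 and Nos3 overlap those of other genes, in part on the opposite strand.

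Apelin and its receptor leaned in opposite directions. Apln (ENSMUSG00000037010, chrX:48025146-48034853), the ligand, measured 89.1, 75.7 and 87.5 CPM in OIR-CIH and 64.9, 82.6 and 45.9 CPM in OIR-Norm. Only OIR-CIH 2 lay below the highest OIR-Norm library, and the mean was 84.1 ± 7.31 CPM (SD, n = 3) against 64.4 ± 18.4 (SD, n = 3). The log2 fold change of Apln was 0.38 (standard error 0.16, 95% interval 0.05 to 0.72), with an edgeR adjusted p of 0.331 and an unadjusted p of 0.0288, and it ranged from 0.19 without OIR-Norm 3 to 0.60 without OIR-Norm 2. Per kilobase of exon Apln was the most abundant of the 39, at 23.6 CPM per kb, next to Tjp1 (22.3) and Cav1 (20.1), which are also used by cells outside vessels. Apln is not limited to endothelial cells, so its RNA in whole retina need not come from tip cells.

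Aplnr (ENSMUSG00000044338, chr2:85136225-85139923) measured 1.33, 1.59 and 2.81 CPM in OIR-CIH and 3.38, 8.00 and 1.85 CPM in OIR-Norm. OIR-Norm 3 lay below OIR-CIH 3, so the groups overlapped. With -1.17 (standard error 0.43, 95% interval -2.10 to -0.23), Aplnr had the lowest log2 fold change of the 39, at an edgeR adjusted p of 0.299 and an unadjusted p of 0.0188. The estimate was -0.42 without OIR-Norm 2 and -1.53 without OIR-Norm 3, with adjusted p of 0.754 and 0.0804. With no filter on low counts, the adjusted p of Aplnr was 0.047 at a fold change of -1.16, the single call among the 39 genes in any setting tried. Esm1 (chr13:113209659-113218098), the secreted proteoglycan that marks tip cells, measured 2.47, 2.39 and 3.60 CPM in OIR-CIH and 2.76, 4.95 and 0.66 CPM in OIR-Norm. Its OIR-Norm libraries spanned more than those of any other of the 39 genes, and its fold change of 0.04 had an interval of -0.95 to 1.03 (edgeR adjusted p = 0.98), which is too wide to show a difference of nearly 2 times in either direction.

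The RNA of the fenestration and caveolae genes, Plvap and Cav1, showed little difference. Plvap, the diaphragm protein of fenestrae, measured 6.79, 7.04 and 7.38 CPM in OIR-CIH and 7.01, 6.59 and 5.72 CPM in OIR-Norm. The groups overlapped by 1 OIR-Norm library, and the log2 fold change was 0.14 (95% interval -0.16 to 0.43, edgeR adjusted p = 0.713). Cav1, the coat protein of caveolae, measured 72.8, 64.6 and 70.0 CPM in OIR-CIH and 66.5, 80.3 and 61.2 CPM in OIR-Norm, and its interval ran from -0.21 to 0.21 around a fold change of -0.0027 (edgeR adjusted p = 0.995).

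The tight junction genes likewise overlapped between the groups. Cldn5 (chr16:18776847-18778262), the main claudin of endothelial junctions, measured 7.73, 9.01 and 14.4 CPM in OIR-CIH and 10.3, 15.2 and 6.63 CPM in OIR-Norm. Cldn5 had a log2 fold change of -0.03 (95% interval -0.61 to 0.56, edgeR adjusted p = 0.977), 0.31 without OIR-Norm 2 and -0.35 without OIR-CIH 3. Ocln, which encodes occludin, measured 4.91, 4.06 and 5.42 CPM in OIR-CIH and 6.36, 6.35 and 4.30 CPM in OIR-Norm, the lowest estimate of the class at -0.24 (95% interval -0.63 to 0.16, edgeR adjusted p = 0.62). Tjp1, the scaffold protein ZO-1 that many retinal cells use, varied least, from 166 to 192 CPM over the 6 libraries with a fold change of -0.06 (95% interval -0.23 to 0.10). Lsr, the angulin-1 of junctions between 3 cells, measured 2.04, 2.12 and 2.43 CPM in OIR-CIH and 2.04, 2.53 and 2.07 CPM in OIR-Norm, a log2 fold change of -0.0037 (95% interval -0.42 to 0.41). Antisense genes overlap its exons.

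Of the transporters, Mfsd2a, which imports lysophosphatidylcholine and restrains transcytosis at the barrier, had the highest estimate. It measured 2.35, 2.15 and 3.18 CPM in OIR-CIH and 2.79, 2.56 and 1.67 CPM in OIR-Norm, a log2 fold change of 0.14 (95% interval -0.36 to 0.65, edgeR adjusted p = 0.836). Abcb1a, the efflux pump P-glycoprotein, measured 1.73, 3.40 and 4.37 CPM in OIR-CIH and 3.41, 4.98 and 3.96 CPM in OIR-Norm, and was the lowest at -0.36 (95% interval -0.94 to 0.23, edgeR adjusted p = 0.613). OIR-CIH 1 alone lay below all other libraries in Abcb1a. The thyroid hormone carrier Slco1c1 (-0.05), the organic anion carrier Slco1a4 (0.08) and the efflux pump Abcg2 (-0.04) had intervals that included 0, the widest from -0.56 to 0.45 for Slco1c1.

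At the capillary surface, Adgrf5 (chr17:43360451-43459557), an adhesion receptor of capillary endothelium, measured 4.67, 5.51 and 7.67 CPM in OIR-CIH and 7.66, 18.5 and 5.28 CPM in OIR-Norm. OIR-Norm 2 lay above all other libraries by more than 10 CPM, and OIR-Norm 3 below 2 of the 3 OIR-CIH libraries. The log2 fold change of Adgrf5 was -0.80 (standard error 0.36, 95% interval -1.57 to -0.03, edgeR adjusted p = 0.366), and it was -0.11 without OIR-Norm 2. Ly6a, the surface antigen Sca-1, measured 0.981, 0.624 and 1.35 CPM in OIR-CIH and 0.552, 1.19 and 0.66 CPM in OIR-Norm, a log2 fold change of 0.33 with an interval of -0.47 to 1.12. The paralog Ly6c1 was at 0.16 (95% interval -0.75 to 1.06) with as few as 10 reads in a library, too few to show a change of this size, and the near-identical sequences of the family can split reads between its genes.

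Libraries of the OIR-Norm group differed widely from each other in these genes. OIR-Norm 2 exceeded OIR-Norm 3 in 39 of 39 genes (47.9% of all genes tested) and by at least 2 times in 20 of 39 (6.13% of all genes), with ratios from 1.07 in Egfl7 to 7.50 in Esm1. OIR-Norm 2 was the highest of the 6 libraries in 29 of 39 genes and OIR-Norm 3 the lowest in 23, where 21% and 14% of all genes had those extremes, and both held for 17 of 39 (3.23% of all genes). Of the 22 general endothelial genes, 15 differed at least 2 times between these libraries, among them Adgrl4 (24.0 against 3.83 CPM), Robo4 (5.79 against 1.13), Tie1 (11.8 against 2.702) and Sox18 (4.595 against 1.07). The coefficient of variation was larger within OIR-Norm than within OIR-CIH in 35 of 39 genes, as it was in 55.2% of the 14800 genes with a mean of at least 1 CPM. The median ratio of the highest to the lowest library was 2.16 within OIR-Norm and 1.48 within OIR-CIH, against 1.18 and 1.16 over those 14800 genes. With 3 libraries a group, a trait of these libraries and an effect of the condition on the spread cannot be told apart.

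**Figure D2:**
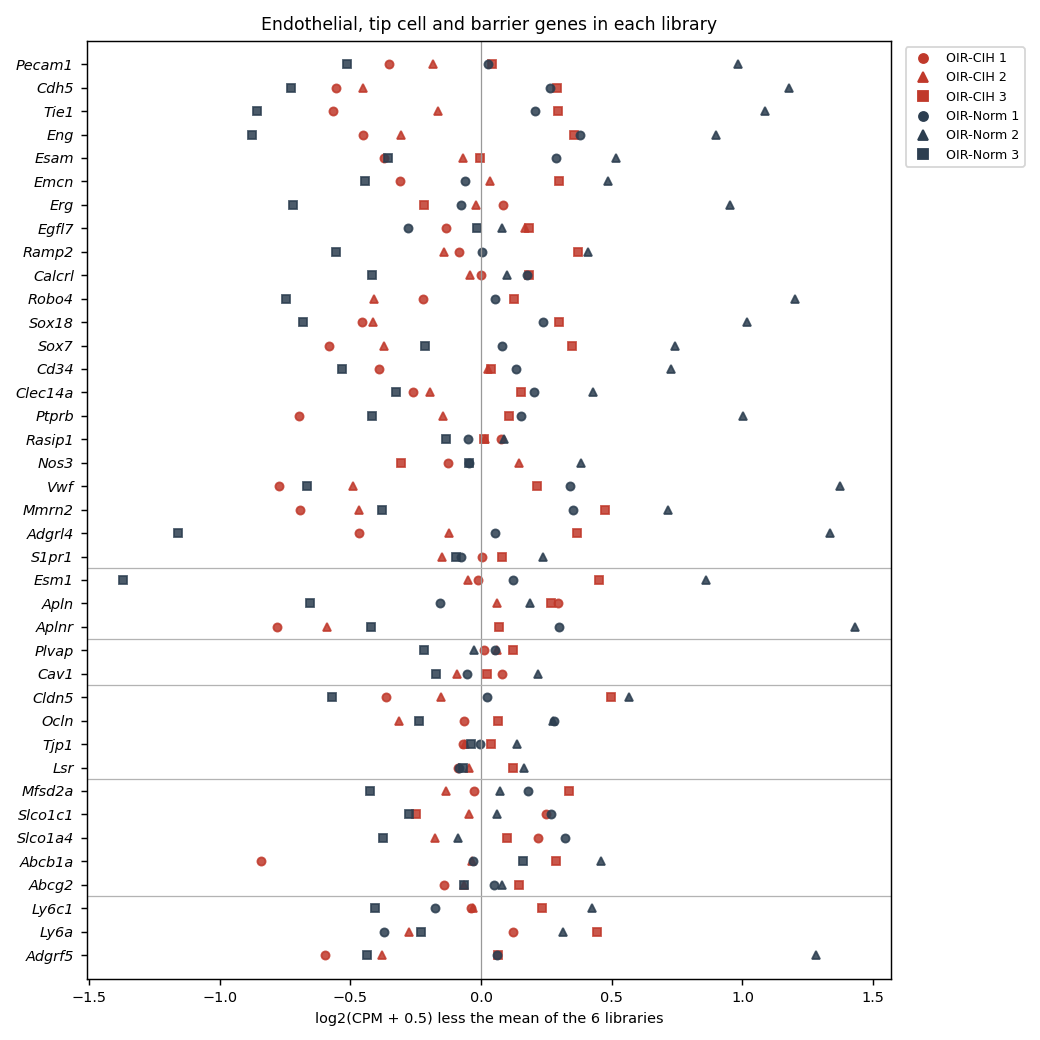
Log2(CPM + 0.5) of each gene in each of the 6 libraries, centred on the gene's mean over the libraries (colour, group; symbol, library number; horizontal lines separate the classes). OIR-Norm 2 is the rightmost point in 29 of 39 genes and OIR-Norm 3 the leftmost in 23, and OIR-CIH libraries lie mostly between them.

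The mean log2(CPM + 0.5) over the 22 general endothelial genes, centred on the 6 libraries, was -0.33, -0.17 and 0.17 in OIR-CIH and 0.11, 0.72 and -0.49 in OIR-Norm. OIR-Norm 1 and OIR-CIH 3 were thus close to each other, with OIR-Norm 2 above and OIR-Norm 3 below all OIR-CIH libraries. The tip cell and apelin genes spread further, from -0.82 in OIR-Norm 3 to 0.83 in OIR-Norm 2, and the barrier transporters less, from -0.20 to 0.16. Markers of the other vascular cells moved with them. The 14 pericyte and smooth muscle markers had a centred mean of 0.68 in OIR-Norm 2 and -0.43 in OIR-Norm 3, with -0.25 to 0.01 in OIR-CIH, and OIR-Norm 2 was the highest library for 12 of the 14. Their summed level, to which genes of other retinal cells also contribute, overlapped between the groups, from 638 to 714 CPM in OIR-CIH and from 627 to 787 CPM in OIR-Norm. The 7 red blood cell genes tested summed to 56.3 to 75.6 CPM in OIR-CIH and to 109, 115 and 52.1 CPM in OIR-Norm 1, 2 and 3. The part of blood content in these levels was not tested.

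**Figure D3:**
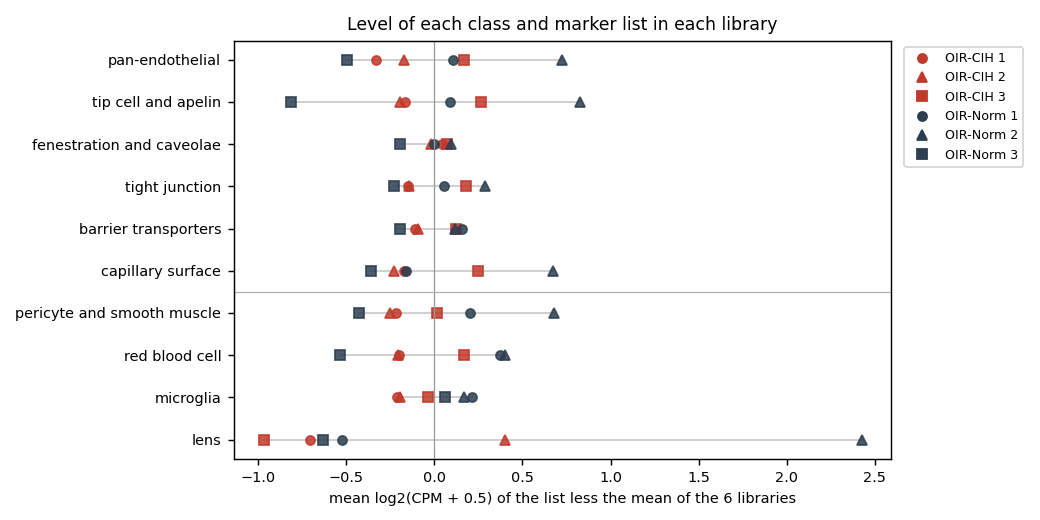
Mean log2(CPM + 0.5) of the 6 classes (top) and of 4 marker lists (bottom) in each library, less the mean of the 6 libraries; colour is the group, the symbol the library number and the grey line the range. OIR-Norm 2 lies highest and OIR-Norm 3 lowest for the general endothelial, tip cell and pericyte lists, while the lens list sets OIR-Norm 2 apart at 2.42.

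The direction of the estimates depended on these libraries. Without OIR-Norm 2, 15 of 39 log2 fold changes were below 0 and their median was 0.07, and the general endothelial median moved from -0.37 to 0.07. Without OIR-Norm 3, 34 of 39 were below 0, the median was -0.38 and the general endothelial median -0.72, with 17 of 39 at an unadjusted p under 0.05, all lower in OIR-CIH (13.1% of all genes in that comparison had such a p in either direction), and still 0 called (lowest edgeR adjusted p = 0.0804, of Aplnr). Without OIR-CIH 3, 33 of 39 were below 0. None of the 39 was called in any of the 6 comparisons that left out 1 library. Plvap, Apln, Aplnr, Vwf and Adgrf5 were among the genes that kept their direction in all of them, though some came close to 0. Plvap ran from 0.06 to 0.20, and without OIR-Norm 2 Vwf was at -0.20 and Adgrf5 at -0.11. They are examples, and a kept direction adds no support for them.

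**Figure D4:**
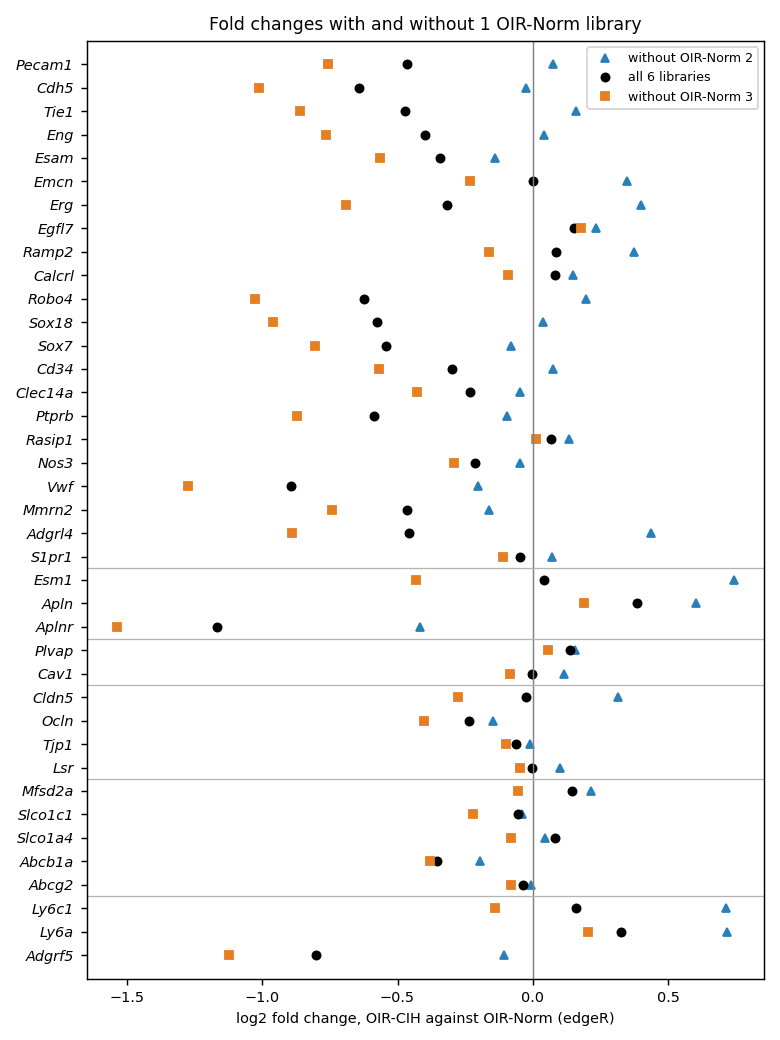
Log2 fold change of each gene with all 6 libraries (black circles), without OIR-Norm 2 (blue triangles) and without OIR-Norm 3 (orange squares), from edgeR. Leaving out OIR-Norm 2 puts the median of the 39 genes at 0.07 and leaving out OIR-Norm 3 at -0.38, and the sign turns between them for genes such as Adgrl4 and Esm1 but not for Aplnr or Vwf.

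Each gene was also described against the general endothelial RNA of its own library. Its log2(CPM + 0.5) was set against the mean of the general endothelial genes of that library, the gene itself left out. On this scale the groups did not overlap for 6 of 39 genes, where 0.749% of all genes tested had such groups. Genes outside vessels carry the spread of the reference on this scale, so that share is no measure for genes that follow it. Without the reference, 18.4% of all genes tested had groups that did not overlap, so the 6 of 39 are not read as a result. Apln was higher relative to the reference in OIR-CIH, with 4.07, 3.67 and 3.54 against 3.18, 2.90 and 3.28 in OIR-Norm, a difference of 0.64. The SD of Apln over the 6 libraries was 0.36 before and 0.41 after the reference was subtracted, but both include the difference between the groups. Within OIR-Norm, Apln had the same order of libraries as the reference, with an SD of 0.19 after subtraction. Within OIR-CIH it did not have that order, and the SD was 0.27. All values on this scale also carry the reference of their library, such as the high one of OIR-Norm 2. Aplnr was lower, with -1.54, -1.51 and -1.19 against -0.90, -0.38 and -1.02, a difference of -0.65. The other 4 were Cldn5 (0.21) and Ramp2 (0.33) with higher and Adgrf5 (-0.38) and Ptprb (-0.28) with lower values in OIR-CIH. Ramp2 and Ptprb belong to the reference class and were measured against its other genes, so differences in both directions are built into their scale. Each of these differences had p = 0.1 in an exact two-sided permutation test, the smallest that 3 libraries against 3 allow, so none could pass a threshold of 0.05. As these groups did not overlap, leaving out 1 library could not turn the sign of a difference, so its sign adds no support. Without each library in turn, the differences ran from 0.49 to 0.75 for Apln and from -0.77 to -0.45 for Aplnr. The ratio of ligand to receptor, chosen after these values were seen, was 5.61, 5.18 and 4.73 on the log2 scale in OIR-CIH and 4.08, 3.29 and 4.30 in OIR-Norm, a difference of 1.29, given as a description because the pair was picked for its opposite directions.

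**Figure D5:**
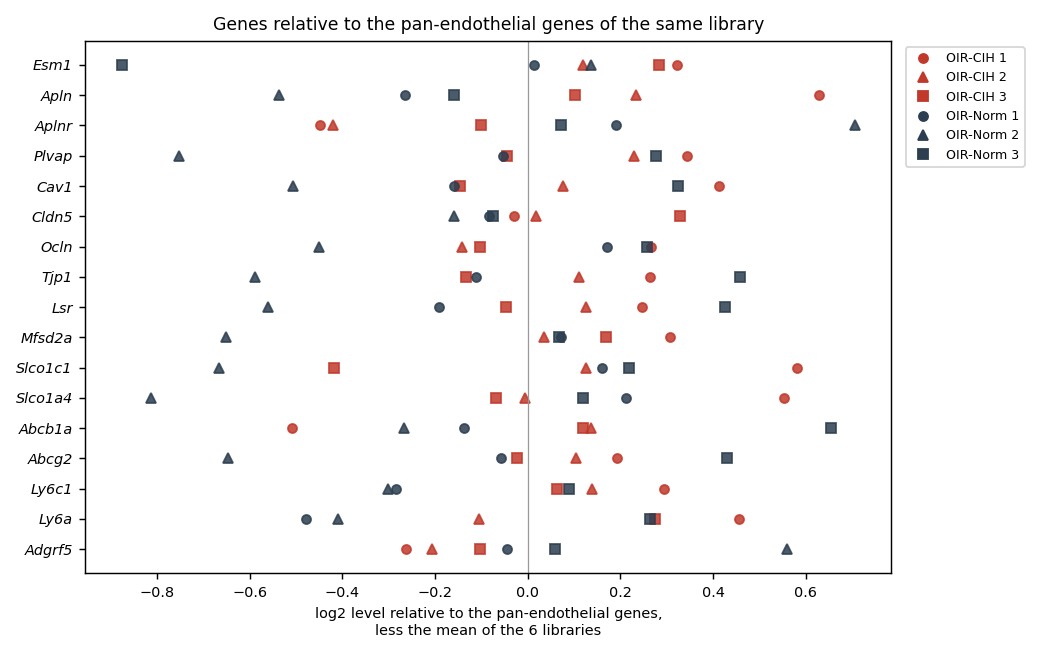
Level of the 17 genes outside the general endothelial class relative to the mean of that class in the same library, on the log2 scale and centred on the 6 libraries (colour, group; symbol, library number). Apln and Cldn5 lie higher in all 3 OIR-CIH than in all 3 OIR-Norm libraries and Aplnr and Adgrf5 lower, while the groups overlap in the other 13.

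Related genes outside the 39 were read from lists of the same kind. Of 32 further endothelial genes 31 were tested (Selp was too low), 26 had a log2 fold change below 0, the median was -0.28 and none was called. The lowest p belonged to Podxl, the sialomucin podocalyxin that other retinal cells may also express, with 214, 206 and 210 CPM in OIR-CIH and 276, 275 and 245 CPM in OIR-Norm (log2 fold change -0.34, edgeR adjusted p = 0.115). Next came the scavenger receptor Stab1 at -0.50 and the GTPase regulator Arap3 at -0.80, with adjusted p of 0.229 and 0.236. These 3 genes had groups that did not overlap, as 4 of the 31 did, a smaller share than the 18.4% of all genes tested. At an unadjusted p under 0.05 (edgeR) there were 7 lower and 0 higher genes, beside 7.01% and 6.2% of all genes tested. Without OIR-Norm 2 the median of the list was -0.015, and without OIR-Norm 3 it was -0.40.

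Of the 25 other tip cell and sprouting genes 0 were called, 21 were below 0 and the median was -0.24, which became 0.026 without OIR-Norm 2 and -0.47 without OIR-Norm 3. Nes, which encodes the intermediate filament nestin of progenitors, reactive glia and new vessels, measured 21.1, 24.7 and 24.1 CPM in OIR-CIH and 42.2, 70.3 and 30.1 CPM in OIR-Norm, with no overlap. Its log2 fold change of -1.03 had an edgeR adjusted p of 0.0943, which was 0.0052 at -1.27 without OIR-Norm 3 and 0.103 at -0.63 without OIR-Norm 2. The endothelin receptor Ednrb (-0.34) and the carboxypeptidase inhibitor Lxn (-0.38) followed with adjusted p of 0.464 and 0.473. Groups did not overlap for 2 of the 25, beside 18.4% of all genes tested.

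Among 39 other barrier genes 1 was called. Tfrc, the transferrin receptor, which imports iron and is not limited to vessels, measured 244, 230 and 226 CPM in OIR-CIH and 158, 178 and 150 CPM in OIR-Norm, and rose by 0.53 on the log2 scale (standard error 0.08, edgeR adjusted p = 0.0131). The call of Tfrc was lost without OIR-CIH 1 (0.49, adjusted p = 0.0927) and, by the size of the fold change, without OIR-Norm 3 (0.47, adjusted p = 0.0495). The monocarboxylate carrier Slc16a1 (0.46) and the tight junction protein Marveld3 (-0.61) had adjusted p of 0.113 and 0.149. Over the list 27 of 39 were below 0, with a median of -0.15 that became 0.00057 without OIR-Norm 2 and -0.23 without OIR-Norm 3. Groups did not overlap for 11 of the 39, beside 18.4% of all genes tested. At an unadjusted p under 0.05 (edgeR) there were 7 lower and 5 higher genes, beside 7.01% and 6.2% of all genes tested.

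Other cell types were measured beside the vessels. In the 14 pericyte and smooth muscle genes the median was -0.43 with 0 called (-0.013 without OIR-Norm 2 and -0.75 without OIR-Norm 3), and Myh11 (-1.16), Rgs5 (-0.61) and Cnn1 (-1.26) had the lowest p, with adjusted p from 0.241 to 0.356. Of 5 astrocyte genes Gfap fell by 1.15 on the log2 scale (edgeR adjusted p = 0.000107), from 158, 147 and 119 CPM in OIR-Norm to 61.5, 62.5 and 67.5 CPM in OIR-CIH, and Gfap is also made by reactive Müller glia. Next by p came Pdgfra (-0.46) and Pax2 (-0.53), with edgeR adjusted p of 0.196 and 0.344. The median of the 5 astrocyte genes was -0.46, with 4 below 0 and 1 above 0, at 0.03. Of 13 microglia genes Fcrls fell by 0.69 (edgeR adjusted p = 0.0414), and the median was -0.29. The call of Fcrls was lost without OIR-CIH 1, 2 or 3 and without OIR-Norm 1 or 3, with adjusted p from 0.0657 to 0.142, while that of Gfap held in all 6 such comparisons. The 12 markers of pigment epithelium and choroid had a median of 0.43 with 0 called. They were split in direction, with 7 above 0 and 5 below 0, from -0.91 to 0.80. Ttr (0.75), Rlbp1 (0.34) and Lrat (0.80) had the lowest p, with edgeR adjusted p of 0.103, 0.164 and 0.173. The 6 lens genes had a median of -1.85 that was 0.25 without OIR-Norm 2. The 7 red blood cell genes had a median of -0.05 with 0 called (3 called lower without OIR-Norm 3). That median ran from -0.38 without OIR-CIH 3 to 0.089 without OIR-Norm 2, and was -0.52 under the stricter count filter filterByExpr. The 12 genes of retinal identity had a median of 0.14 with 0 called. Groups did not overlap for 6 of 13 microglia, 3 of 5 astrocyte, 4 of 12 pigment epithelium and 4 of 12 retinal identity genes. They did not overlap for 1 of 14 pericyte and 0 of the lens and red blood cell genes, beside 18.4% of all genes tested.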

How the data were processed

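RNA of 6 mouse retina libraries (3 OIR-CIH, 3 OIR-Norm) had been sequenced from 250 ng of RNA each with a stranded mRNA kit. The authors aligned reads with STAR 2.7.9a, which also counted them per gene, and the deposited values are those raw counts, not normalized. The submitters' processing notes name GRCm38, whereas the study's methods name a later Ensembl release, and which strand of the counter was kept is not given in the sources used here. Symbols (32235 of 32285 identifiers), coordinates and exon lengths were taken from GENCODE M21 (GRCm38), and promoters from RefSeq.

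Groups came from the labels. Genes whose counts summed to 10 or more were scaled by TMM and tested with edgeR 4.0.16 (quasi-likelihood test, R 4.3.3, Benjamini-Hochberg adjustment), with no covariate. Calls needed both an adjusted p under 0.05 and a log2 fold change beyond 0.5 in size, which are the study's filter and thresholds. Intervals are 95% and use the fit's degrees of freedom. Single values used exact permutation tests on log2(CPM + 0.5). Alternatives were DESeq2 1.42.0, limma 3.58.1 with a trend, median-of-ratios scaling, other count filters, no minimum fold, a replicate block, other added values or a reference of 3 genes for the relative levels, and leaving out each library. On simulated counts for this comparison (19730 genes), 73 of 100 genes changed by 0.7 and 100 of 100 changed by 1.5 (log2) were called. The changed genes were drawn only from genes with higher mean counts than those of Sox7, Ly6c1 and Ly6a. The shares may also overstate the power for the 39 genes because of their spread. Their median biological coefficient of variation was 0.226, against 0.0973 over genes with a mean of at least 1 CPM. No pair of replicates agreed within counting noise, so none was treated as 1 library deposited more than once, which says nothing of the animals behind them. The 39 genes, their classes and all gene lists were chosen with earlier results of these data known. Values in every library are given for called genes, for the highest and lowest fold change of each class and for Pecam1, Cdh5 and Cldn5, and at most 3 genes with the lowest p of each other list are named. Esm1, Plvap, Cav1, Tjp1, Gfap and the genes with large OIR-Norm ratios were given so after their values were seen. The authors' own imaging and flow cytometry were not analysed here.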

Additional observations from a re-analysis of the deposited data

How the results depend on the processing

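The count of the 39 genes called was 0 in each setting except when no filter on low counts was set, where it was 1 (1 lower, Aplnr). Over all genes tested, 135 were called with DESeq2 (101 lower, 34 higher), 213 without a count filter (153 lower, 60 higher), and from 35 to 104 without 1 library (24 to 88 lower, 11 to 33 higher). The labels do not say that libraries of equal number are paired. Correlations of deviations for equal numbers were 0.162, 0.143 and -0.238, and not every library correlated best with its own number. So few libraries cannot exclude a pairing. With the replicate number as a block 84 genes were called (52 lower, 32 higher), 0 of the 39, with 1 other tip cell gene (Nes), 0 microglia, 4 pigment epithelium and 1 lens gene.

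Calls in the other lists moved as follows. DESeq2 called 2 barrier, 1 pericyte, 2 microglia and 1 pigment epithelium gene, and limma-trend 0 microglia genes. Without a count filter there were 1 other endothelial, 1 tip cell, 3 barrier, 2 pericyte, 1 red blood cell, 2 microglia, 5 pigment epithelium and 2 lens genes. Without 1 library, counts ran from 0 to 1 for other endothelial, tip cell, barrier, pericyte and microglia genes and from 0 to 3 for pigment epithelium and red blood cell genes. The medians ran from -0.14 to 0.71 for the capillary surface, from -0.57 to -0.28 for astrocyte and from -2.54 to 0.25 for lens genes.

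Signs turned for Emcn (-0.0053 with DESeq2, -0.0038 with filterByExpr) and Cav1 (0.0044 with limma-trend, 0.0050 with the replicate block). Without 1 library, log2 fold changes that changed sign ran from -0.76 to 0.074 (Pecam1), -0.86 to 0.16 (Tie1), -0.77 to 0.042 (Eng), -0.69 to 0.40 (Erg), -1.03 to 0.20 (Robo4), -0.98 to 0.036 (Sox18), -0.57 to 0.075 (Cd34), -0.89 to 0.44 (Adgrl4), -0.23 to 0.35 (Emcn), -0.16 to 0.37 (Ramp2), -0.092 to 0.19 (Calcrl), -0.11 to 0.070 (S1pr1), -0.43 to 0.74 (Esm1), -0.086 to 0.11 (Cav1), -0.35 to 0.31 (Cldn5), -0.092 to 0.099 (Lsr), -0.056 to 0.29 (Mfsd2a), -0.23 to 0.11 (Slco1c1), -0.082 to 0.30 (Slco1a4), -0.13 to 0.021 (Abcg2), -0.14 to 0.71 (Ly6c1) and -0.0014 to 0.72 (Ly6a). Beyond the construction of each setting, the cause was not tested. The precision of genes below 1 CPM is limited by their counts.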
